A study of Bos taurus with 6 samples.

Results

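The 36 genes described here encode enzymes that remove superoxide and peroxides, the thioredoxin and glutathione systems that keep those enzymes reduced, selenoproteins, a metallothionein, and NRF2 with its inhibitor and targets. They were taken by gene symbol from a list of these roles, drawn up with earlier results of these data known. All 36 were found among the 22839 different symbols in the count data. They stood on 37 rows, because GSTP1 had a second row with 1.01 to 5.74 normalized counts a steer. The 36 rows with enough reads, 1 for each gene, were tested.

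The data were 3′ messenger RNA sequencing counts from the longissimus thoracis (LT), the loin muscle in which marbling is graded, of 6 Hanwoo (Korean native cattle) steers raised conventionally on commercial feed. The steers formed 2 groups of 3 that differed in the number of fine marbling particles (NFMP), the small flecks of fat counted on an image of the cut muscle. The high-NFMP group held replicates 1, 2 and 3, which were steers 3-8, 10-8 and 10-9, aged 32.5, 33.8 and 34.5 months. The low-NFMP group held replicates 1, 2 and 3, which were steers 3-1, 3-3 and 10-16, aged 37.8, 33.7 and 35.4 months. Total counts ran from 16283873 in steer 3-8 to 17192750 in steer 10-16. The values below follow the order 3-8, 10-8, 10-9 for high NFMP and 3-1, 3-3, 10-16 for low NFMP, and are normalized counts, that is, reads per gene scaled to libraries of the same size. These counts were also used to order genes by level. That assumes that a 3′ method gives each transcript about the same number of reads whatever its length, which was not tested. TTN, the gene of the giant protein titin, averaged 976004 normalized counts against 342406 for ACTA1. Orders between genes are thus orders of reads and may differ from orders of transcripts.

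Cells make superoxide as a by-product of respiration and of oxidases. Superoxide dismutases turn it into hydrogen peroxide, which catalase, glutathione peroxidases and peroxiredoxins then remove, the last with electrons from thioredoxin or glutathione. NRF2, encoded by NFE2L2, switches on many of these genes when KEAP1 no longer marks it for breakdown. In muscle, fibres with many mitochondria depend on these enzymes, and fat cells and blood vessel walls hold some of them at high levels.

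The marker genes matched the labelled tissue. The 10 skeletal muscle markers took between 10.4% and 12.3% of all counts of a library, with TTN, the giant sarcomere spring titin, as the most abundant, and none was at 0. Adipocyte markers were present in all 6 libraries, with FABP4, a fatty acid carrier, the most abundant of 10. Their summed normalized counts were 12121, 5633 and 4551 in high NFMP and 5169, 5657 and 4363 in low NFMP. The sum in steer 3-8 thus stood apart from those of the other 5 steers, which lay close together. All 10 adipocyte markers had a log2 fold change (high over low NFMP) above 0, except LPL when libraries were scaled by their totals alone, and 4 of them had an unadjusted edgeR p below 0.05. These 4, ADIPOQ, CIDEC, CIDEA and LIPE, were higher in every high-NFMP steer, steers 10-8 and 10-9 included, with log2 fold changes of 0.63, 0.89, 0.69 and 0.55. Scaled by library totals ADIPOQ overlapped and 3 of the 10 had an unadjusted p below 0.05. Their part in the differences below was not tested.

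Markers of other cells were also present. The 9 macrophage markers, led by C1QA, summed to 1260, 825 and 881 in high NFMP and 601, 1079 and 626 in low NFMP, and 3 of them had an unadjusted p below 0.05, all higher in high NFMP. The 8 fibroblast markers, led by DCN, summed to 14898, 17093 and 13891 against 11109, 13561 and 14104. The 7 endothelial markers, led by PECAM1, summed to 1851, 1296 and 1466 against 1544, 1597 and 1237. Both of these sums overlapped between groups, while 1 gene of each list had an unadjusted edgeR p below 0.05, the fibroblast marker PDGFRA at a log2 fold change of -0.51 and the endothelial marker CLDN5 at 0.93. Both went against most of their lists, as 6 of the 8 fibroblast markers were above 0 and 4 of the 7 endothelial markers below 0. The endothelial marker CDH5, at -0.16, was lower in every high-NFMP steer. Slow-fibre markers, led by MYL2, took 0.849% to 1.22% of counts and fast-fibre markers, led by MYH1, 1.89% to 2.56%, again with overlap. Of the 8 slow-fibre markers, 4 had a log2 fold change above 0 and 4 below, and of the 9 fast-fibre markers 8 were above and 1 below. In these lists MYL3, a slow myosin light chain, was lower in every high-NFMP steer, at a log2 fold change of -0.78 (edgeR unadjusted p = 0.00253, adjusted p = 0.145; DESeq2 adjusted p = 0.0403), and PVALB, a calcium buffer of fast fibres, had 1.27 (edgeR unadjusted p = 0.0190) with overlapping groups. Their part in the differences below was not tested. Of 10 erythroid markers, 9 were found and 2 had enough reads to test. Their sum was between 54.5 and 93.2 normalized counts a steer, with ALAS2 the most abundant, and the hemoglobin gene HBB was at 0 in steers 3-1 and 3-3.

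Together the 36 genes took 0.290% to 0.355% of a library's counts. Their mean level ran from 35.2 normalized counts for GSS to 11976 for SELENOW, and the median over the set was 531.7 against 143.7 for all 15039 tested rows. SELENOW was followed by TXNIP at 9978, KEAP1 at 5120, MSRB1 at 3900, MGST3 at 2958 and PRDX6 at 2551. SELENOW overlapped in range with TXNIP, TXNIP with KEAP1, and MSRB1 with KEAP1, MGST3 and PRDX6, so the order of these neighbours was not separated beyond the spread between steers. At the low end were GCLC, GSR, GCLM, SOD3, TXNRD2 and GSS, all with a mean under 100 normalized counts. Steer 10-9 held the highest or the lowest value of the 6 steers for 22 of the 36 genes, whereas the other steers did so for between 6 and 14. For some of the genes whose values moved without this steer, both values are given below.

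Between high and low NFMP muscle, single genes of the set had an unadjusted edgeR p below 0.05, in both directions, and none passed after adjustment. SOD3 and GPX3, which act outside the cell, and GCLC, which makes the precursor of glutathione, were higher. SOD2 and PRDX3, which act in mitochondria, CAT, the peroxisomal catalase, and TXNIP, the thioredoxin-binding protein, were lower. These 7 of 36 genes had an unadjusted p below 0.05 in the edgeR quasi-likelihood test, against 11.5% of all 15039 tested rows. The 3 higher genes compare with 5.73% of all rows and the 4 lower genes with 5.74%. The list was drawn up with earlier results of these data known. Its genes also had a higher median level than all rows and a smaller median SE, 0.217 against 0.277. These shares therefore cannot show a property of the pathway. Only SOD3 also passed a fold change of 2, a threshold that 3.9% of all rows met together with the p. With Benjamini-Hochberg adjustment over all rows, edgeR called 0 of the 36 genes, where 0.685% of all rows were called, and the smallest adjusted p of the set was 0.213. DESeq2 and quantile normalization with limma also called 0 after adjustment, and each gave 6 genes at an unadjusted p below 0.05.

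For 11 of the 36 genes the 3 high-NFMP values and the 3 low-NFMP values did not overlap, against 17.1% of all tested rows. Besides the 7 genes above these were GPX4, TXNRD2, KEAP1 and HMOX2, all higher in high NFMP. Scaled by library totals alone, a comparison added after the data were seen, TXNRD2, KEAP1 and HMOX2 overlapped, which left 8 of 36 against 17.5% of all rows. The limit given above for the shares applies to these shares too. The median log2 fold change of the set was 0.06, with 22 genes above 0 and 14 below (18 and 18 when scaled by library totals, where MGST3, NFE2L2, SOD1 and TXN changed sign), and the median over all rows was 0.02. The median size of the change, regardless of sign, was 0.29 on the log2 scale in the set and 0.26 over all rows. For 26 of the 36 genes the 95% interval of the fold change lay within 2-fold in both directions, as it did for 57.3% of all rows. In these bulk samples, fewer cells of a type and less RNA per cell cannot be told apart.

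**Figure D1:**
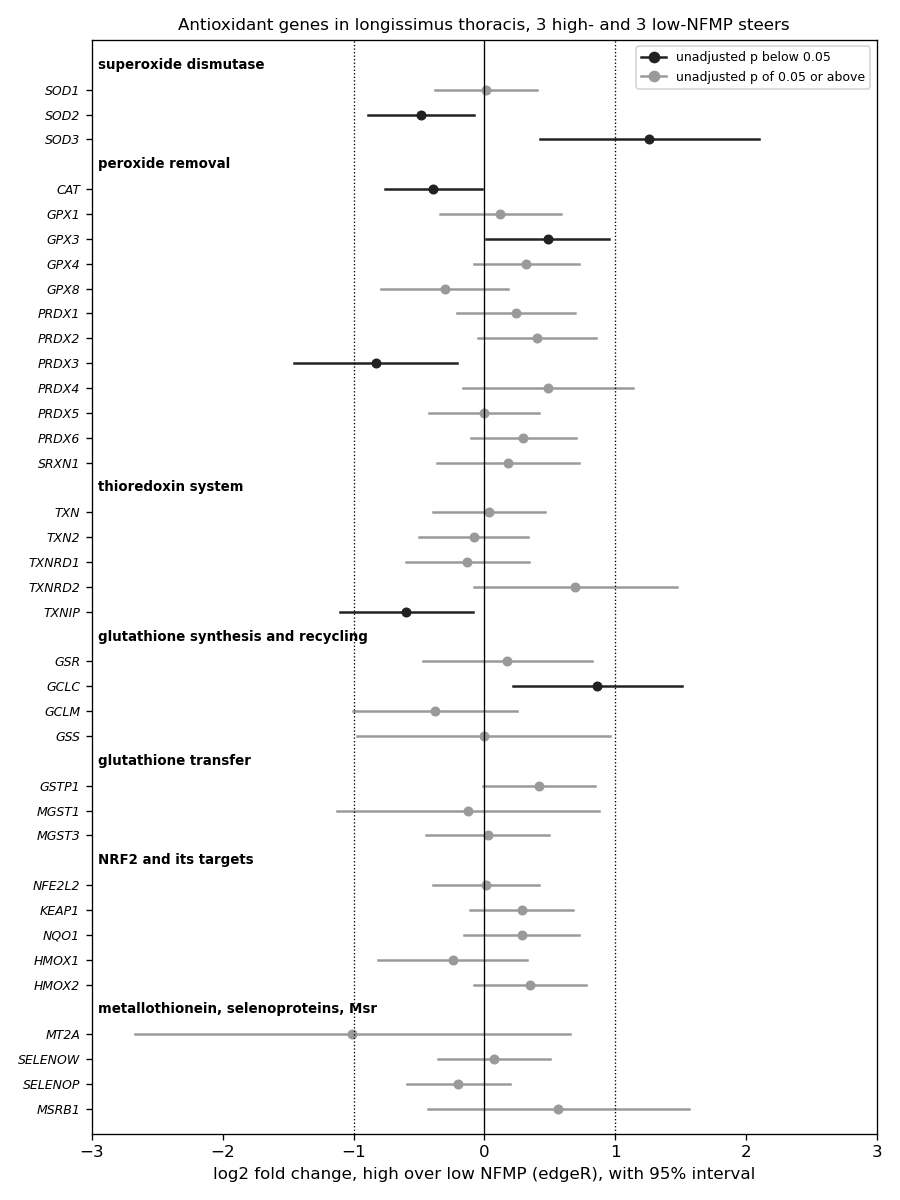
Log2 fold change of each of the 36 genes, high over low NFMP, from the edgeR fit (x axis), with genes listed by role (y axis); points are estimates, bars are 95% intervals, dotted lines mark a fold change of 2, and black marks an unadjusted p below 0.05. SOD3 at 1.26 lies beyond the dotted line on the right, PRDX3 at -0.83 and TXNIP at -0.60 lie on the left, and MT2A at -1.01 has the widest interval.

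The 3 superoxide dismutases went in different directions. SOD3, the secreted form that binds to the matrix around vessels and cells, counted 42.6, 111.1 and 72.2 in high NFMP and 28.7, 27.8 and 37.4 in low NFMP. Every high-NFMP steer was above every low-NFMP steer, but steer 3-8 was only just above steer 10-16, and steer 10-8 was the highest. The log2 fold change was 1.26 with an SE of 0.39, a fold change of 2.4 (edgeR unadjusted p = 0.00594, adjusted p = 0.213). Without steer 10-8 it was 0.92 (unadjusted p = 0.0475) and no longer passed a fold change of 2, and without steer 3-8 it was 1.55. A model with a term for the leading number of each steer's label gave 0.95. The adipocyte marker sum was highest in steer 3-8, which had the lowest SOD3 of its group, while 4 adipocyte markers were, like SOD3, higher in every high-NFMP steer. So were the endothelial marker CLDN5 and the macrophage markers CSF1R, CD14 and C1QA, of which only CSF1R stayed apart when scaled by library totals. The endothelial CDH5 and the fibroblast PDGFRA were lower in every high-NFMP steer. The fibroblast marker sum was highest in steer 10-8, as SOD3 was. The part of any of these cells in the SOD3 difference was not tested.

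SOD2, the manganese enzyme of the mitochondrial matrix, counted 1248, 1478 and 1003 in high NFMP and 1686, 1935 and 1602 in low NFMP. All 3 low-NFMP steers were above all 3 high-NFMP steers, and steer 10-9 was the lowest. Its log2 fold change was -0.49 with an SE of 0.19 (edgeR unadjusted p = 0.0223, adjusted p = 0.341). Without steer 10-9 it was -0.34 (unadjusted p = 0.103) and without steer 3-3 it was -0.41 (unadjusted p = 0.0897). SOD1, the copper and zinc enzyme of the cytosol, had overlapping groups and a fold change of 1.01, with a 95% interval on the log2 scale from -0.37 to 0.40. The ratio of SOD2 to SOD1 counts, which needs no scaling between libraries and was chosen after the values were seen, was 1.58, 1.62 and 0.973 in high NFMP and 1.69, 2.26 and 1.88 in low NFMP. This restates the SOD2 difference against a gene with little difference of its own, and steers 10-8 and 3-1 were close.

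Among the 12 genes of peroxide removal, 8 had a log2 fold change above 0 and 4 below, of which PRDX5 moved above 0 under size factors or quantile normalization. CAT, which breaks hydrogen peroxide down in peroxisomes, counted 1150, 1285 and 1059 in high NFMP and 1454, 1661 and 1470 in low NFMP. The groups were separate, with a gap between steers 10-8 and 3-1, and spread little within each group. Its log2 fold change was -0.39 with an SE of 0.17 (edgeR unadjusted p = 0.0398, adjusted p = 0.410). The p was above 0.05 without any 1 of steers 3-8, 10-9, 3-1, 3-3 and 10-16, with log2 fold changes from -0.43 to -0.31, and below it without steer 10-8, where the log2 fold change was -0.44.

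GPX3, the glutathione peroxidase secreted into plasma, counted 413.5, 422.3 and 690.0 in high NFMP and 361.7, 351.6 and 377.6 in low NFMP. Steer 10-9 was far above the other 5, and steers 3-8 and 10-8 were a little above the low-NFMP steers, which were close together. In edgeR the log2 fold change was 0.48 with an SE of 0.22 (edgeR unadjusted p = 0.0453, adjusted p = 0.426). Without steer 10-9 it was 0.22 (unadjusted p = 0.278), and without steers 3-1, 3-3 or 10-16 it was 0.48, 0.46 and 0.55, with p of 0.0903, 0.113 and 0.0635. The GPX3 p was below 0.05 in 6 of the 14 other settings tried, and was 0.0521 in DESeq2, 0.0562 in limma and 0.0898 in edgeR scaled by library totals. GPX4, which reduces lipid peroxides in membranes, counted 452.0, 533.4 and 512.5 against 435.4, 355.3 and 407.9. The groups were separate, with high NFMP above, and its log2 fold change was 0.32 with an SE of 0.19 (edgeR unadjusted p = 0.107). GPX1, the main cytosolic glutathione peroxidase, had overlapping groups and a log2 fold change of 0.12. This turned to -0.11 without steer 10-8 and -0.01 with age as a term, and was 0.30 without steer 10-9. GPX8, a membrane protein of the endoplasmic reticulum, had a log2 fold change of -0.30. The counts of GPX8 and of CDC20B, which overlaps it in the ARS-UCD2.0 annotation, were nearly the same, so their reads cannot be told apart.

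The 6 peroxiredoxins share one chemistry and differ in where they sit. PRDX3, the mitochondrial form, counted 377.0, 527.9 and 201.6 in high NFMP and 574.1, 759.7 and 633.0 in low NFMP. Steer 10-9 was the lowest, and steer 10-8, the highest of the high-NFMP group, was still below steer 3-1, the lowest of the other group. The log2 fold change was -0.83 with an SE of 0.29, a fold change of 0.562 (edgeR unadjusted p = 0.0132, adjusted p = 0.282). Without steer 10-9 it was -0.52 (unadjusted p = 0.0384), and without steer 10-8 it was -1.16 (unadjusted p = 9.09e-04). PRDX3 and SOD3 were the members with an unadjusted p below 0.05 under each of the 14 other settings tried.

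The other peroxiredoxins did not go with PRDX3. PRDX5, part of which is also mitochondrial, had a fold change of 0.998 with a 95% log2 interval from -0.42 to 0.42. The ratio of PRDX3 to PRDX5 counts, also chosen after the values were seen, was 1.03, 1.02 and 0.448 in high NFMP and 1.30, 1.87 and 1.30 in low NFMP, which restates the PRDX3 difference against a gene with little difference of its own. PRDX1 and PRDX2, of the cytosol, had log2 fold changes of 0.24 and 0.40, and PRDX4, of the endoplasmic reticulum, had 0.48, each with overlapping groups. PRDX2 and PRDX4 had an unadjusted p below 0.05 in 2 of the 14 other settings, without steer 3-8 and without steer 10-16, while with the label number as a term they had 0.22 and 0.19 (edgeR unadjusted p = 0.214 and 0.470). Without steer 10-9, PRDX1 had 0.07 and PRDX4 had 0.30. PRDX6, which also repairs oxidized phospholipids, was the most abundant of the 6 and counted 2664, 3239 and 2535 in high NFMP and 2693, 2104 and 2072 in low NFMP. Steer 3-1 lay among the high-NFMP steers, and the log2 fold change was 0.30 with an SE of 0.19 (edgeR unadjusted p = 0.136, adjusted p = 0.578). SLC9C2, which overlaps PRDX6, held between 92.3% and 99.9% of the PRDX6 count in each library, so this value is uncertain as to the gene. SRXN1, which restores overoxidized peroxiredoxins, had a log2 fold change of 0.18.

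In the thioredoxin system TXNIP, which binds thioredoxin and limits glucose uptake, was by far the most abundant gene. It counted 7872, 10672 and 5290 in high NFMP and 11052, 13548 and 11433 in low NFMP. The groups did not overlap, although steers 10-8 and 3-1 were close, and steer 10-9 was again the lowest. Its log2 fold change was -0.60 with an SE of 0.24, a fold change of 0.661 (edgeR unadjusted p = 0.0246, adjusted p = 0.349). Without steer 10-9 it was -0.36 (unadjusted p = 0.135), and it was -0.59 (unadjusted p = 0.0565) without steer 3-8 and -0.50 (unadjusted p = 0.0888) without steer 3-3. The thioredoxins themselves, TXN of the cytosol and TXN2 of mitochondria, had log2 fold changes of 0.04 and -0.08, with overlapping groups. Of the reductases that recharge them, the cytosolic TXNRD1 had a log2 fold change of -0.13. The mitochondrial TXNRD2 counted 57.8, 54.5 and 74.2 in high NFMP and 25.8, 51.8 and 37.4 in low NFMP. Each high-NFMP steer was above each low-NFMP steer by a narrow margin, which was lost when scaled by library totals (49.8 in steer 10-8 and 56.0 in steer 3-3), with a fold change of 1.62 and a 95% log2 interval from -0.08 to 1.47 (edgeR unadjusted p = 0.0759). The TXNRD2 log2 fold change was 0.97 without steer 3-3 and 0.43 with age as a term (edgeR unadjusted p = 0.0346 and 0.338). Of the 4 members placed in the mitochondrial matrix, a grouping made after the values were seen, SOD2 and PRDX3 were thus lower in each high-NFMP steer, TXN2 overlapped, and TXNRD2 was separate or overlapped with the scaling.

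Glutathione is made by glutamate-cysteine ligase, which has a catalytic subunit, GCLC, and a modifier subunit, GCLM, and then by GSS. GCLC counted 81.1, 130.0 and 155.5 in high NFMP and 56.5, 72.2 and 72.7 in low NFMP. Steers 10-8 and 10-9 were well above the low-NFMP steers and steer 3-8 only a little above them. For GCLC the log2 fold change was 0.86 with an SE of 0.30, a fold change of 1.82 (edgeR unadjusted p = 0.0122, adjusted p = 0.274). Without steer 3-8 it was 1.09 and passed a fold change of 2, and without steer 10-9 it was 0.67 (unadjusted p = 0.0612). GCLM went the other way, with 57.8, 75.6 and 81.2 in high NFMP and 107.2, 99.0 and 72.7 in low NFMP. Its groups overlapped through steer 10-16, and its log2 fold change was -0.38 with an SE of 0.29 (edgeR unadjusted p = 0.217). The ratio of GCLC to GCLM counts, chosen after the values were seen, was 1.40, 1.72 and 1.91 in high NFMP and 0.527, 0.729 and 1.0 in low NFMP. This restates the GCLC and GCLM differences already given. The catalytic subunit had more reads than the modifier subunit in each high-NFMP steer and no more than it in any low-NFMP steer. Reads of different genes are compared here, so a ratio of 1.0 has no meaning of its own. GSS and GSR, the reductase that recycles oxidized glutathione, had log2 fold changes of -0.01 and 0.18, and at these low levels the 95% interval of GSS reached from -0.97 to 0.96. Without steer 10-9 GSS had -0.34 and GSR -0.004, and without steer 10-8 they had 0.36 and 0.40.

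The 3 genes of glutathione transfer had no unadjusted p below 0.05 in edgeR, DESeq2 or limma with the group as the only term and all 6 steers. GSTP1, a soluble transferase, had a log2 fold change of 0.42 (edgeR unadjusted p = 0.0567), with steer 3-8 inside the low-NFMP range. With 1 steer left out it ranged from 0.30 without steer 10-9 (edgeR unadjusted p = 0.181) to 0.59 without steer 3-8 (unadjusted p = 0.00539), and was 0.32 with the label number as a term (unadjusted p = 0.164) and 0.60 with age as a term (unadjusted p = 0.0287). MGST3, a membrane-bound transferase and the most abundant of the 3, counted 2923, 3888 and 2138 in high NFMP and 2986, 2495 and 3316 in low NFMP. Its highest and lowest values were both in high NFMP, and its log2 fold change was 0.02 with an SE of 0.22 (edgeR unadjusted p = 0.913, adjusted p = 0.978). Without steer 10-8 MGST3 had -0.19 and without steer 10-9 it had 0.23. MGST1, another membrane-bound transferase, counted 354.7, 141.1 and 84.2 in high NFMP and 203.8, 239.7 and 189.8 in low NFMP. Steer 3-8 was above all low-NFMP steers and steers 10-8 and 10-9 were below them, and steer 3-8 also had the highest adipocyte marker sum, whose part in this value was not tested. MGST1 had a log2 fold change of -0.13 over all 6 steers and of -0.91 without steer 3-8 (edgeR unadjusted p = 0.00809), and turned to 0.24 without steer 10-9 and 0.07 without steer 10-8.

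NRF2 itself had overlapping groups. NFE2L2 had a log2 fold change of 0.01 with a 95% interval from -0.39 to 0.42. KEAP1, which holds NRF2 in check, counted 5464, 5344 and 6077 in high NFMP and 4690, 3947 and 5199 in low NFMP. Each high-NFMP steer was above each low-NFMP steer, steer 10-16 being close to steer 10-8 and above it when scaled by library totals, and the log2 fold change was 0.29 with an SE of 0.18 (edgeR unadjusted p = 0.140, adjusted p = 0.583). Some textbook NRF2 targets among the 36 genes, grouped after their values were seen and not a full list, had different signs. NQO1, a quinone reductase, had a log2 fold change of 0.29 and HMOX1, the inducible heme oxygenase, -0.24, beside 0.86 for GCLC, -0.38 for GCLM, 0.18 for SRXN1 and -0.13 for TXNRD1. Of these, HMOX1 turned to 0.05 without steer 10-8 and with age as a term, SRXN1 to -0.03 without steer 10-16 and TXNRD1 to 0.03 without steer 10-9, and HMOX1 was -0.39 without steer 10-9. PRDX1, GSR, GSTP1 and TXN, also often counted as NRF2 targets, were all above 0, at 0.24, 0.18, 0.42 and 0.04. GSR turned to -0.004 without steer 10-9 and TXN to -0.04 when scaled by library totals. The split of signs thus depends on which targets are listed. HMOX2, the constitutive heme oxygenase, counted 376.0, 366.7 and 305.9 in high NFMP and 275.6, 303.5 and 242.3 in low NFMP. Its groups were separate by a narrow margin between steers 10-9 and 3-3 that was lost when scaled by library totals, with a log2 fold change of 0.35 and an SE of 0.20 (edgeR unadjusted p = 0.0997). Without steer 10-9 HMOX2 had 0.45 (edgeR unadjusted p = 0.0468).

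SELENOW, a small selenoprotein abundant in muscle, counted 10201, 12800 and 13886 in high NFMP and 13528, 10880 and 10562 in low NFMP. The groups overlapped over nearly their whole range, and the log2 fold change was 0.08 with an SE of 0.20 (edgeR unadjusted p = 0.706, adjusted p = 0.906). SELENOP, the secreted selenium carrier, had a log2 fold change of -0.20 with overlapping groups, and CCDC152, which overlaps it, held between 93.3% and 96.4% of its count in each library. MSRB1, a selenoprotein that repairs oxidized methionine, counted 2377, 3335 and 8247 in high NFMP and 2427, 3588 and 3426 in low NFMP. Steer 10-9 stood far above the other 5, which did not differ by group. Over all 6 steers its log2 fold change was 0.56 with an SE of 0.43 (edgeR unadjusted p = 0.228, adjusted p = 0.667), and without steer 10-9 it was -0.12. Without steer 3-8 it was 0.88 (edgeR unadjusted p = 0.0387).

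MT2A, a metallothionein that binds zinc and copper, varied more between steers than any other member. It counted 300.0, 202.3 and 594.7 in high NFMP and 664.1, 1282 and 264.5 in low NFMP. Steer 3-3 was the highest, and steers 10-8 and 10-16, from different groups, were the lowest. The log2 fold change was -1.01 with an SE of 0.67 (edgeR unadjusted p = 0.185), and the 95% interval reached from -2.67 to 0.65. Without steer 10-16 it was -1.37 (unadjusted p = 0.0163), without steer 10-9 -1.54 (unadjusted p = 0.0755), without steer 10-8 -0.68 and without steer 3-3 -0.35. MT1A, a related metallothionein outside the set that was looked at after its values were seen, was highest in the same steer of each group as MT2A, with 158.1, 251.1 and 1125 in high NFMP and 353.1, 1627 and 81.8 in low NFMP. Metallothionein genes are near-identical copies, so the split of reads between them is uncertain.

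**Figure D2:**
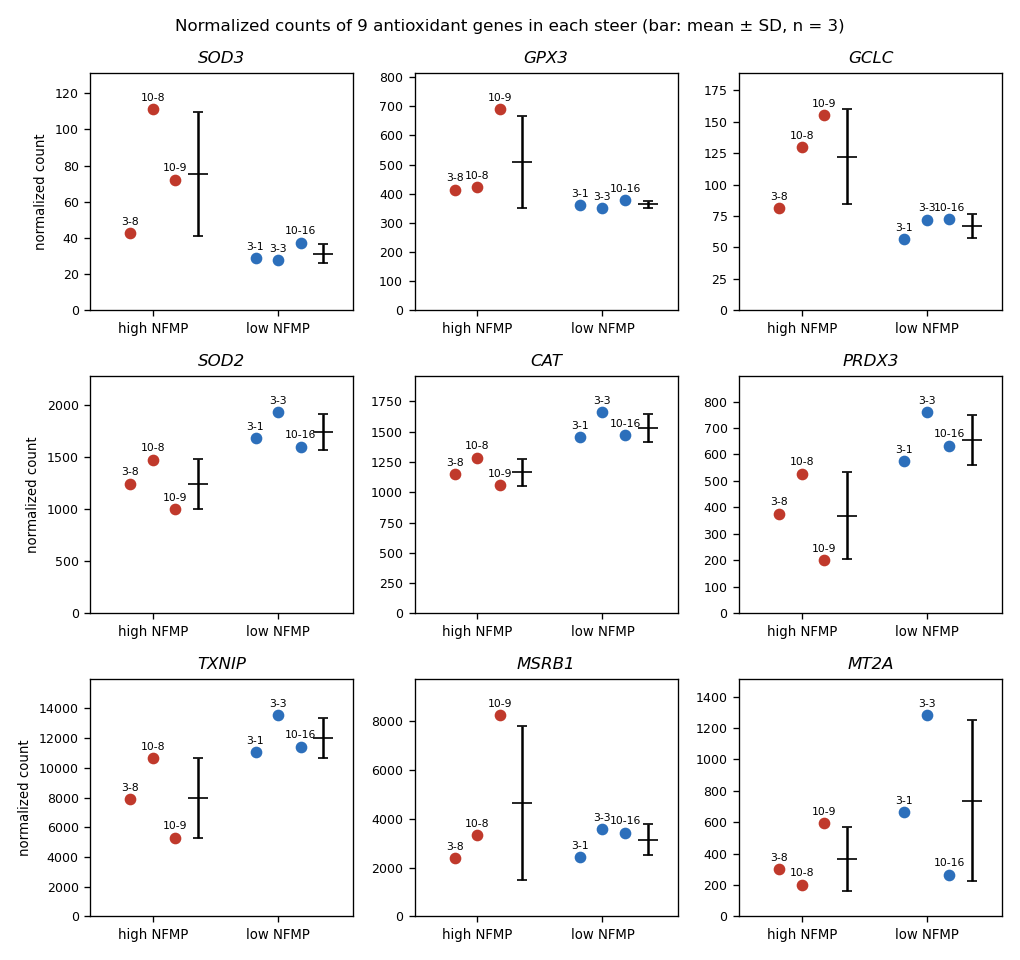
Normalized counts (y axis, from 0) of 9 genes in each steer by group (x axis), with the mean and SD of each group of 3 as the bar beside the points. In the 7 genes from SOD3 to TXNIP the groups do not overlap, whereas MSRB1 is high in steer 10-9 alone at 8247 and MT2A is spread from 202.3 to 1282 across both groups.

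The leading number in each steer's label, 3 or 10, has no stated meaning but occurs in both groups, and the ratio of group means was also taken within each number, a comparison added after the data were seen. Within the steers whose label starts with 3, the log2 ratio was 0.59 for SOD3, 0.21 for GPX3, 0.33 for GCLC, -0.54 for SOD2, -0.44 for CAT, -0.82 for PRDX3 and -0.64 for TXNIP. Within those whose label starts with 10, it was 1.30, 0.56, 0.97, -0.37, -0.33, -0.80 and -0.52 for the same genes. The signs follow from groups that do not overlap and say nothing of stability. Steer 3-8 was the only high-NFMP steer labelled 3, and steer 10-16 the only low-NFMP steer labelled 10. Each ratio thus rests on a lone steer on one side, and differences in size between the label numbers cannot be told from the spread between steers. Of all 36 genes, 14 had opposite signs within the 2 label numbers, a count that for the same reason cannot show a difference between them. Among them, in steers labelled 3 and then 10, were MT2A at -1.70 and 0.59, MGST1 at 0.68 and -0.75, GSTP1 at -0.08 and 0.71, MSRB1 at -0.34 and 0.76 and GCLM at -0.84 and 0.11. With the label number as a term in edgeR, GPX3, GCLC and CAT no longer had an unadjusted p below 0.05, with log2 fold changes of 0.39, 0.66 and -0.38 and p of 0.119, 0.0509 and 0.0529. The low-NFMP steers were also older on average, and with age as a term PRDX3 had a log2 fold change of -1.09 and SOD3 of 1.43, while CAT had -0.48 with a p of 0.0577 in edgeR.

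A wider list of 95 genes of the same pathways, from NADPH supply to the makers of superoxide, stood on 97 rows, of which 89 were tested. Of these, 2 had an unadjusted p below 0.05 in edgeR (11.5% of all rows), 0 also passed a fold change of 2 (3.9% of all rows), and 0 passed after adjustment (0.685% of all rows). DESeq2 and limma gave 3 and 6 genes at an unadjusted p below 0.05, and 0 by either of the other thresholds, and edgeR scaled by library totals gave 5 at an unadjusted p below 0.05. Groups did not overlap in 15 of 89, close to the share of all rows given above, and the median log2 fold change was 0.01, with 47 above 0 and 42 below (41 and 48 when scaled by library totals). SELENOF, a selenoprotein of the endoplasmic reticulum that binds a glycoprotein folding sensor, counted 336.4, 377.8 and 234.7 in high NFMP and 507.1, 625.5 and 474.5 in low NFMP. The groups were well apart, and steer 10-9 was the lowest. The log2 fold change was -0.76 with an SE of 0.22 (edgeR unadjusted p = 0.00340, adjusted p = 0.166), and the unadjusted p stayed below 0.05 with any 1 steer left out. MAFF, a small Maf protein that pairs with NRF2 on DNA, counted 2296, 2342 and 3119 in high NFMP and 1745, 1548 and 2374 in low NFMP. Steer 10-16 lay above steers 3-8 and 10-8, and the log2 fold change was 0.45 with an SE of 0.21 (edgeR unadjusted p = 0.0454, adjusted p = 0.426). It was 0.31 without steer 10-9, 0.40 without steer 3-1 and 0.33 without steer 3-3, with unadjusted p of 0.166, 0.133 and 0.191 in edgeR. With the label number as a term, library totals as the scaling or age as a term, the edgeR unadjusted p was 0.0910, 0.0650 and 0.0548.

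Selenoproteins and the genes for their synthesis formed 16 of the wider list. In 8 of them the groups did not overlap, against 17.1% of all tested rows, which was the highest share among the 7 role groups of the wider list, and 11 of 16 had a log2 fold change below 0 (12 after quantile normalization), as did 7234 of all 15039 rows, with SELENOF as the gene at an unadjusted p below 0.05 in edgeR. SEPSECS, which makes the selenocysteine carried by its transfer RNA, had a log2 fold change of -0.79 with overlapping groups and an unadjusted p of 0.0626 in edgeR, 0.0478 in DESeq2 and 0.0325 in limma. Those lower in each high-NFMP steer were SELENOF, SELENOH, SELENOI, SELENOK, SELENOM, SELENOO and SELENOS, and SELENON, which is mutated in a congenital muscle disease, was higher. Scaled by library totals, SELENOK and SELENON overlapped and SELENOT and SEPSECS did not, which again gave 8 of 16. Of the 8 selenoproteins among the 36 genes, 6 (GPX1, GPX3, GPX4, TXNRD2, SELENOW and MSRB1) had a log2 fold change above 0 and TXNRD1 and SELENOP had one below. The differences were small in part, as in SELENOK, which counted 660.7, 660.1 and 476.4 in high NFMP and 666.9, 671.8 and 669.3 in low NFMP. Here steers 3-8 and 10-8 were just under the low-NFMP steers and steer 10-9 was well under them. SELENOO, a mitochondrial selenoprotein, had a clearer gap, with 180.4, 156.7 and 171.5 against 245.9, 215.6 and 233.2 and a log2 fold change of -0.45 with an SE of 0.21 (edgeR unadjusted p = 0.0525). Among the 9 genes of NADPH supply, which feeds both thioredoxin and glutathione reductases, TALDO1 of the pentose phosphate pathway was higher in each high-NFMP steer and NNT, the mitochondrial transhydrogenase, was lower, with log2 fold changes of 0.37 and -0.31 and edgeR unadjusted p of 0.0566 and 0.104. The genes named in this paragraph other than SELENOF, and the single marker genes other than the most abundant ones, were picked after their values were seen. NFE2L1, a relative of NRF2, was the most abundant gene of the wider list at 14371 normalized counts, against 988 for NFE2L2, and its log2 fold change was -0.07.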

How the data were processed

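The authors deposited whole-number read counts per gene symbol for each of the 6 libraries, made from a Lexogen 3′ kit. The submitters' processing notes name Bowtie2 and bedtools, and the study's methods describe both a Tophat2 and HTSeq route and a Bowtie2 route that counted unique and multiple alignments. Which route made the counts, and whether it used strand, was not given in the sources used here, so reads shared by copied or overlapping genes may be counted for each. Genes were matched by symbol. Rows with repeated symbols were kept apart. Counts were normalized by TMM and tested with edgeR 4.0.16 (quasi-likelihood, robust, group as the only term) in R 4.3.3, on the 15039 of 23015 rows that passed its filter (minimum count 10, minimum total 15), with Benjamini-Hochberg adjustment over those rows. The thresholds were that of the study's methods (fold change above 2 and unadjusted p below 0.05) and an adjusted p below 0.05. The code was tested on simulated counts. DESeq2 1.42.0, quantile normalization of log2(count + 1) with limma 3.58.1, other filters and scalings, age, label number and each steer left out were tried. Values in every steer are given for genes at an unadjusted p below 0.05 and the 5 most abundant others, and for genes that stood out after their values were seen (GPX4, TXNRD2, GCLM, MGST1, HMOX2 and MT2A). The 36 genes and the other lists were chosen with earlier results of these data known. Libraries of the same group differed by far more than sampling noise (chi-square per degree of freedom 35.5 to 60.6). An exact permutation test of 3 against 3 cannot go below 0.1.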

Additional observations from a re-analysis of the deposited data

How the results depend on the processing

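Of the 29 members at an unadjusted p of 0.05 or above, 15 changed sign under at least 1 of the 14 alternatives, the largest of these being MSRB1 at 0.56; the other 7 have groups that do not overlap, so their sign could not turn when a steer was left out. The count of members past p and fold change, 1 in edgeR, was 2 with age as a term (PRDX3 and SOD3) and 0 with the first label number as a term, and ranged from 1 to 2 with each steer left out, being 2 without steer 3-8 (GCLC and SOD3) or 10-16 (MT2A and SOD3) and 1 without steer 10-8 (PRDX3). Members at an unadjusted p below 0.05, 7 in edgeR, were 4 with the label number as a term (GPX3, GCLC and CAT lost) and 3 to 10 with each steer left out (3 without 10-9, 4 without 3-3). After adjustment 0 members were called under any alternative, with 6 at an unadjusted p below 0.05 by DESeq2 and by limma. The wider list had 0 past p and fold change, and 0 to 3 with each steer left out (3 without 10-8, 1 without 3-3). Over all rows, 586 passed p and fold change, 364 with 10 counts required in every library and 969 with no filter, as the number of rows tested differed. The 103 rows called after adjustment became 291 by DESeq2, 31 with age as a term, 240 with no filter and 28 to 82 with each steer left out. The cause of the other shifts was not tested. With 3 steers a group, differences smaller than the intervals given could not be detected, and age and NFMP group differ together.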
